A study of Mus musculus with 4 samples.

Results

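The genes described here are Ccl2, Ccl7, Cxcl1, Cxcl2 and Cxcl5, the chemokines that draw monocytes and neutrophils. They were taken by symbol from the 31053 features of single-cell libraries of mouse liver, and all 5 of 5 were found. Their unique molecular identifiers (UMIs, 1 for each RNA molecule caught and counted) were summed over whole libraries and over cells chosen by pairs of marker genes.

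Chemokines are small secreted proteins that bind receptors on white blood cells and guide them into tissue. Ccl2 and Ccl7 act on Ccr2, the receptor that brings inflammatory monocytes from blood into injured liver, whereas Cxcl1, Cxcl2 and Cxcl5 act on Cxcr2, the main chemokine receptor of neutrophils. All 5 are classical targets of NF-κB, the transcription factor activated by tumour necrosis factor, interleukin-1 and microbial products, and their messages are short-lived.

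The mice carried Col1a2-CreERT2, a tamoxifen-dependent Cre driven by a collagen promoter, with a tdTomato reporter meant to mark collagen-producing cells. The labels spell the reporter allele R27RtdTomato for positive recovery, R28RtdTomato for negative injury and R29RtdTomato for negative recovery, and whether these are different alleles is not stated. Injury was 8 weeks on a methionine- and choline-deficient diet with 45% fat and 0.1% L-methionine in the drinking water, a model of fatty liver inflammation. The recovery groups came from mice let recover from that diet, for a length not given in the sources used here. Age, tamoxifen dosing and the number of mice in each library are also not given in the sources used here. Of the 4 libraries, 1 for each combination of reporter fraction and stage, the positive injury library was not analysed here.

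After filtering, 2380 cells of positive recovery, 2949 of negative recovery and 5443 of negative injury were used, with median totals of 11232, 8670 and 6849 UMIs. The libraries shared 3 to 9 cell barcodes per pair. Each group is 1 library, so no test was run, no difference has a replicate check, and intervals cover counting error only. Levels are given as CPM, the UMIs of a gene for every 1000000 UMIs of its group. Every log2 ratio was taken after 10 CPM was added to each side, and a member was called apart at 2-fold or more on that scale with at least 10 CPM in 1 group.

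Ccl2 and Ccl7 lie side by side on chromosome 11, at 82035571 to 82037453 and 82045712 to 82047525 (GRCm38, plus strand), with 8258 bases and 0 coding genes between them. Cxcl5 (90759360 to 90761624), Cxcl1 (90891241 to 90893115) and Cxcl2 (90903871 to 90905938) lie on the plus strand of chromosome 5. Cxcl1 and Cxcl2 are 10755 bases apart, and 4 other CXC genes, Ppbp, Pf4, Cxcl3 and Cxcl15, lie between Cxcl5 and Cxcl1. Ccl2 overlaps the gene model Gm17268, and the other 4 members overlap no other gene. The longest exact run shared by the transcripts of Ccl2 and Ccl7, and by those of Cxcl1 and Cxcl2, was 23 bases.

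RefSeq promoters (GRCm38.p6) matched 2 of the 5 members, the neighbours Cxcl1 and Cxcl2. The 250 bases before each start site are shown because these neighbours were both lower in recovery than in injury in every gate compared below. Capitals mark an NF-κB-type decamer, GGGAATTTCC. It lies 71 to 62 bases before the RefSeq start of Cxcl1 and 97 to 88 before that of Cxcl2. The Cxcl1 window is chr5:90890995-90891244 and the Cxcl2 window chr5:90903649-90903898, both on the plus strand. Both windows end inside the GENCODE gene spans given above, which begin at 90891241 and 90903871. Counted from those starts the distances would be shorter, by more for Cxcl2 than for Cxcl1.
Cxcl1: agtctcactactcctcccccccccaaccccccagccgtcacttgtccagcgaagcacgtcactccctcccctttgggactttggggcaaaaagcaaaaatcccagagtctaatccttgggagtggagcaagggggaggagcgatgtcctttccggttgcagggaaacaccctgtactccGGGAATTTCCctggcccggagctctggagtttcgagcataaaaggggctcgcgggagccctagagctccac
Cxcl2: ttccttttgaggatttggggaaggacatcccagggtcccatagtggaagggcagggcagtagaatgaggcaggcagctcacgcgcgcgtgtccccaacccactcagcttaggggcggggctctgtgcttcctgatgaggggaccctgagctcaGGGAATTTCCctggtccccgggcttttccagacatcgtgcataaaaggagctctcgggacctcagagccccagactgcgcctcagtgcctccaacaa

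The decamer was searched as GGG, any 5 bases and CC, a relaxed NF-κB pattern found on either strand in 45.8% of 32851 promoter windows of the same length. GGGAATTTCC, the form of it that both windows hold, was in 28 windows, or 0.0852%. With the 4 bases after it, GGGAATTTCCCTGG, it is also the longest run that the 2 windows share. That run was in 2 of the 32851 windows, those of Cxcl1 and Cxcl2 themselves. Both sequences were picked because the 2 windows hold them, so their low counts are no test of rarity. The AP-1 heptamer TGANTCA (6.75% of windows) and the C/EBP-type octamer TTNNGCAA (9.56%) had no match in either window. The relaxed NF-κB pattern also matched GGGAAACACC, 90 to 81 bases before the RefSeq start of Cxcl1, and GGGCTTTTCC, 78 to 69 before that of Cxcl2. These 2 sites are not in capitals. In a global alignment 153 of 294 columns were identical, 52.0%. These matches describe the letters only.

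ATTTA pentamers, known as elements of short-lived messages, were counted in the 3′ untranslated region of each member's longest coding transcript. There were 7 in the 595 bases of Cxcl1, 11.8 per kilobase, a density reached by 0.480% of 19808 genes. Cxcl2 had 11 in 1497 bases and 2.59% of genes reached its density. Densities were lower in Ccl7 (2 in 438 bases, 4.57 per kilobase), Cxcl5 (5 in 1114, 4.49) and Ccl2 (1 in 278, 3.60). These were still above the median of 1.35 per kilobase over all genes, and 9.54%, 9.94% and 15.9% of genes reached them.

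Cells were gated by the lower of 2 marker counts, which had to be at least 2 UMIs and at least 2 times that of every other gate. The mesothelial gate (Upk3b and Nkain4, genes of the liver's surface lining) held 1174 cells in positive recovery, 79 in negative recovery and 270 in negative injury. The stellate gate (Lrat and Reln) held 113, 6 and 37 cells, the duct gate (Epcam and Spp1) 24, 385 and 1009, and the endothelial gate (Kdr and Ptprb) 177, 2240 and 3428. A myeloid gate (Tyrobp and Ctss) held 53 cells in positive recovery and 0 in the negative libraries. Each gate was checked against 8 other markers of its type, and in every group of at least 30 cells all 8 had UMIs. The stellate markers, however, summed to 3227 CPM in endothelial gate cells of positive recovery, against 214 and 243 CPM in the negative libraries.

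Over whole libraries, Ccl2, the main ligand of Ccr2, stood at 232 CPM in negative injury, 12.6 in negative recovery and 94.1 in positive recovery. Ccl7, its neighbour and a second Ccr2 ligand, stood at 16.9, 0.331 and 28.4 CPM. Cxcl1 had 247, 48.7 and 142 CPM in the same order. Thus 4 members were highest in negative injury and Ccl7 in positive recovery, and all 5 were lowest in negative recovery. Cxcl2, made by many cell types after injury, had 105, 11.4 and 37.9 CPM. Cxcl5, known as an epithelial chemokine, had 50.1, 2.46 and 14.7 CPM.

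Among gated groups of at least 30 cells, Ccl2 was highest in mesothelial cells of negative injury, at 734 CPM (95% interval 712 to 757), and 80.4% of these 270 cells held at least 1 Ccl2 UMI. The same gate held 3 Ccl2 UMIs in all of negative recovery (2.01 CPM) and 77.8 CPM in positive recovery. Stellate cells of negative injury came next, at 285 CPM in 37 cells, ahead of duct cells at 207 CPM. Myeloid (165), stellate (147) and endothelial cells (126) of positive recovery and endothelial cells of negative injury (125) followed, with intervals that overlapped from each to the next. Duct cells (12.8) and endothelial cells (8.14) of negative recovery were far below their injury counterparts.

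Ccl7 followed Ccl2 in its first 2 places. It stood at 103 CPM in mesothelial cells of negative injury and at 64.5 in stellate cells of that library, whose interval overlapped that of the 46.8 CPM in myeloid cells. Mesothelial cells of positive recovery had 28.2 CPM and those of negative recovery 4 UMIs. Duct and endothelial cells of negative injury held only 4.23 and 3.32 CPM, so Ccl7 was far more restricted than Ccl2, which the same cells held at 207 and 125 CPM.

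**Figure D1:**
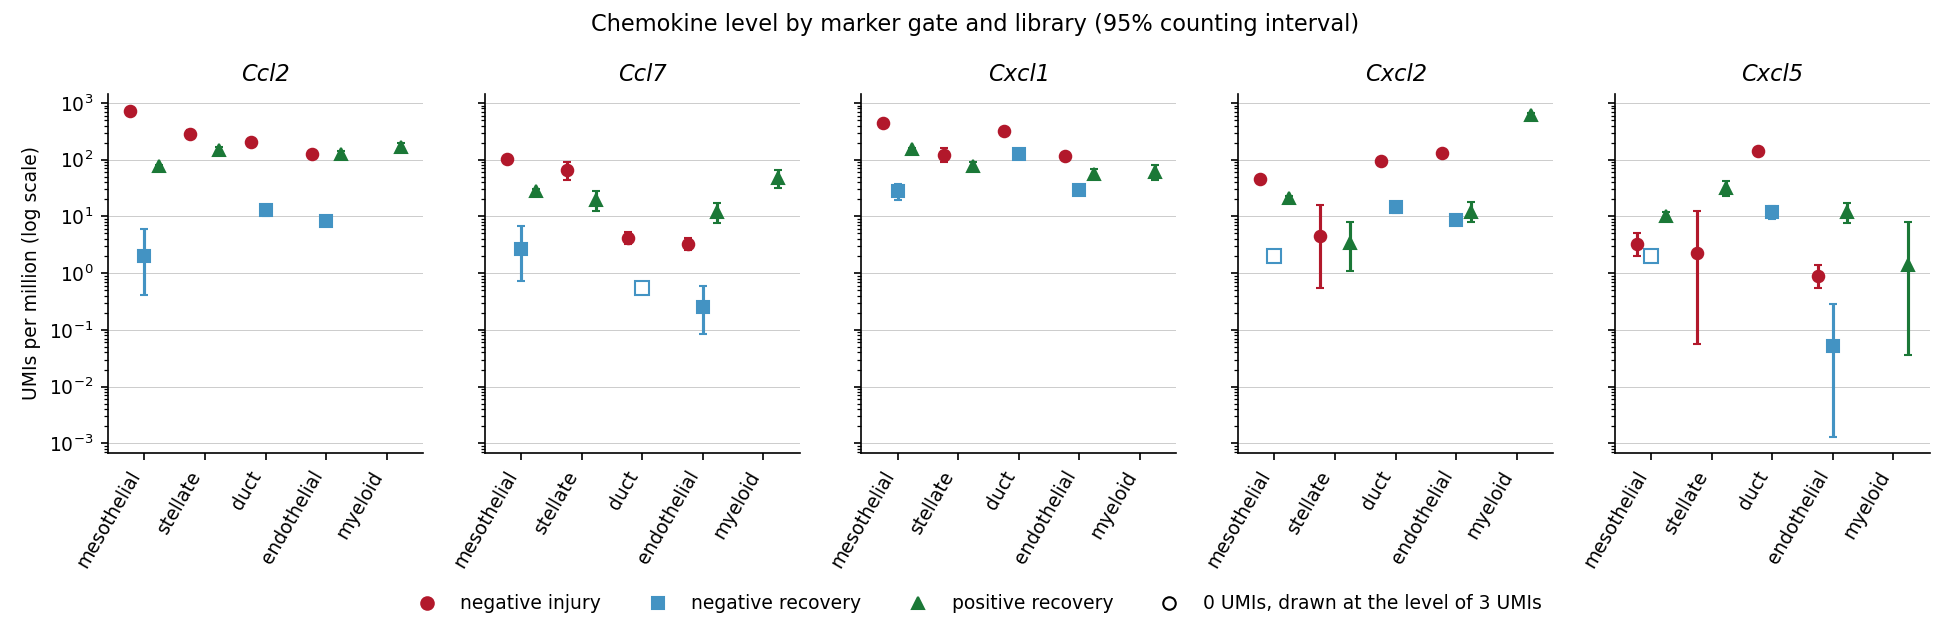
Level of each chemokine (CPM, log axis) in the marker gates, by library, for groups of at least 30 cells. Bars are 95% Poisson intervals and open symbols mark groups with 0 UMIs, drawn at the level of 3 UMIs. In each gate with both negative libraries, the negative recovery symbol lies below the negative injury one for every gene.

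Cxcl1, the mouse counterpart of the GRO neutrophil attractants, had UMIs in every gate that held cells, in each library. It was highest in mesothelial (449 CPM) and duct cells (322 CPM) of negative injury, followed by mesothelial cells of positive recovery (155 CPM). Duct cells of negative recovery still held 126 CPM, the highest level of any member in a gate of at least 30 cells in that library. Endothelial and mesothelial cells of negative recovery were lowest, at 29.2 and 27.5 CPM with overlapping intervals.

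Cxcl2 had a different order. It stood at 609.9 CPM in the 53 myeloid gate cells of positive recovery, then at 132 in endothelial, 93.9 in duct and 46.5 CPM in mesothelial cells of negative injury. Stellate cells held 2 UMIs in negative injury and 5 in positive recovery. Cxcl2 was therefore the member for which endothelial cells exceeded mesothelial and duct cells in the injury library.

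In the negative libraries Cxcl5 was counted almost wholly in duct cells. Duct cells held 143 CPM in negative injury and 11.9 in negative recovery, which came to 96.1% and 97.0% of each library's Cxcl5 UMIs. Endothelial cells of negative injury held 20 UMIs (0.898 CPM) in 3428 cells, and mesothelial cells 19 UMIs. In positive recovery, where the duct gate had 24 cells and 2 Cxcl5 UMIs, the level was 31.4 CPM in stellate, 11.8 in endothelial and 10.4 in mesothelial cells.

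The share of each library's molecules by gate shows where the RNA was counted. In negative injury, mesothelial cells were 4.96% of cells with 11.9% of all UMIs but held 37.5% of Ccl2 and 72.5% of Ccl7 UMIs. Duct cells, 18.5% of cells with 33.5% of all UMIs, held 43.7% of Cxcl1 and 29.9% of Ccl2 UMIs, the latter below their share of all RNA. Endothelial cells, 63.0% of cells with 45.8% of all UMIs, held 57.4% of Cxcl2 but 24.6% of Ccl2 UMIs. Against their RNA, then, mesothelial cells were rich in Ccl2, Ccl7 and Cxcl1, duct cells in Cxcl1 and endothelial cells in Cxcl2. For Cxcl1 the mesothelial level (449 CPM) was above that of duct cells (322 CPM), which held more of its UMIs in total. In positive recovery the mesothelial gate, 49.3% of cells with 71.6% of all UMIs, held 59.1% of Ccl2, 71.0% of Ccl7 and 78.2% of Cxcl1 UMIs, so only Cxcl1 of these 3 exceeded its share of RNA. The myeloid gate, with 2.24% of all UMIs, held 36.1% of Cxcl2.

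**Figure D2:**
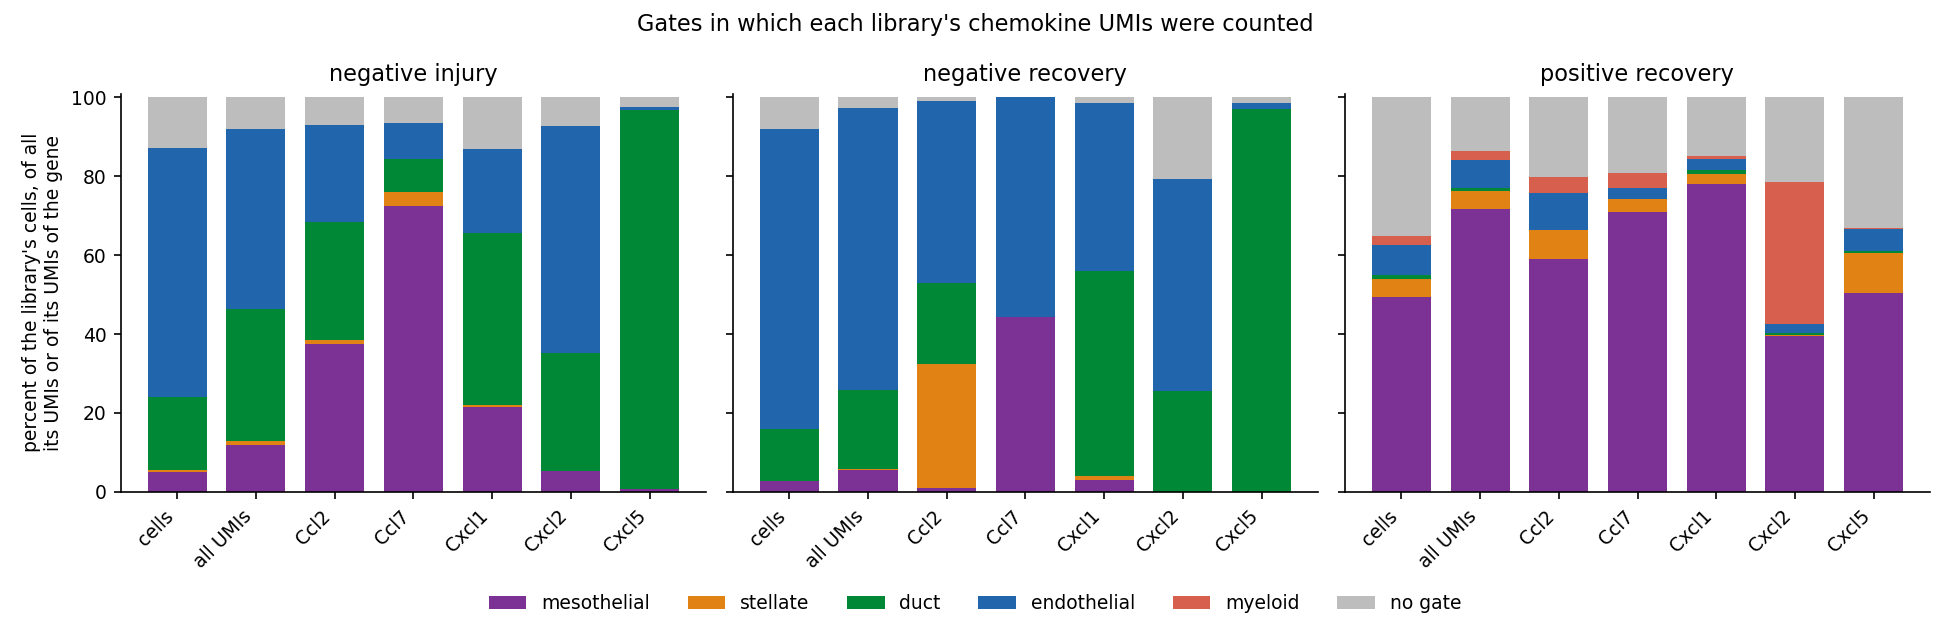
Percent of each library's cells, of all its UMIs and of its UMIs of each chemokine by marker gate. Mesothelial cells supply 72.5% of Ccl7 and duct cells 96.1% of Cxcl5 in negative injury, and myeloid cells 36.1% of Cxcl2 in positive recovery, against 11.9%, 33.5% and 2.24% of all UMIs.

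The first comparison asked how far the chemokines were lower in recovery than at injury, within the negative fraction. Over whole libraries all 5 members were at least 2-fold lower, with a median log2 ratio of -2.27, against 3.4% of 9712 genes measured and a median of 0.11 over them. Ccl2 was 18.5-fold lower in CPM (interval 16.6 to 20.6, log2 -3.42) and Cxcl1 5.07-fold lower (4.79 to 5.37, log2 -2.13). Ccl7, Cxcl2 and Cxcl5 had log2 ratios of -1.38, -2.43 and -2.27. That of Ccl7 was -0.66 without the 1% of cells highest for it and -0.86 among cells low in the stress genes described below. Whole libraries also differ in their mix of cells, and fewer cells of a type cannot there be told apart from less RNA in each.

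Within the mesothelial gate 4 of 5 members were at least 2-fold lower, against 2.5% of 8831 genes. Ccl2 had the widest log2 ratio of the 5, with 3 UMIs in 79 cells against 4233 in 270, 365-fold lower in CPM (interval 125 to 1769, log2 -5.95). Cxcl1 was 16.3-fold lower (12.0 to 22.8, log2 -3.61) and Ccl7 38.5-fold lower (15.0 to 142, log2 -3.16). Cxcl2 had 0 UMIs in recovery, 23.1-fold lower when 3 UMIs are taken as the floor over the group. At injury 10 of the 270 cells held 86.9% of the Cxcl2 UMIs. Cxcl5 was under 10 CPM in both groups and was not counted. Median totals were 15757 and 20837 UMIs in these 2 groups of cells.

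In the duct gate 4 of 5 members were lower, against 2.16% of 9399 genes. Ccl2 was 16.2-fold (12.8 to 20.8, log2 -3.25) and Cxcl5 12.1-fold lower (9.43 to 15.7, log2 -2.81). Cxcl1, by contrast, was 2.55-fold lower there (2.35 to 2.76, log2 -1.28), the smallest of its ratios by gate. Ccl7 had 69 UMIs at injury and 0 in recovery, 7.72-fold lower with the same floor, but stayed under 10 CPM. In the endothelial gate 3 of 5 were lower, against 2.74% of 8690 genes: Ccl2 (15.3-fold, log2 -2.89), Cxcl2 (15.4-fold, log2 -2.93) and Cxcl1 (3.94-fold, log2 -1.67).

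Some genes listed as markers of other cells differed in the same direction. In duct cells a list of 10 hepatocyte genes summed to 7791 CPM in recovery and 11681 at injury. Of these, 4 of 9 measured were at least 2-fold lower (Apoa1, Serpina1a, Serpina1c, Trf) and 1 higher (Mup3). Alb alone stood at 4965 and 6359 CPM there, against 82.4 and 167 in endothelial cells, and its source was not tested. In endothelial cells the sums were 193 and 365 CPM, with 3 of 8 lower and 1 higher, and the macrophage genes C1qa (3.71 against 32.7 CPM) and C1qb (15.2 against 63.2 CPM) were lower too. In mesothelial cells 0 of 4 hepatocyte genes were apart. Of the monocyte list, Plac8, Cd14 and Fn1 were lower in these cells. Ccr2, Ly6c2 and Chil3 had 0 UMIs in them in either library, and Lyz2 had 1 in recovery and 3 at injury. Csf1r of the myeloid list stood higher in recovery, at 10.1 against 1.91 CPM (log2 0.75). Cd14 and Fn1 were lower in duct cells as well, and Plac8 was not apart there (log2 -0.76). Ptprc had 0 UMIs in mesothelial and duct cells of both libraries, and the part of other cells' RNA in the ratios was otherwise not tested.

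**Figure D3:**
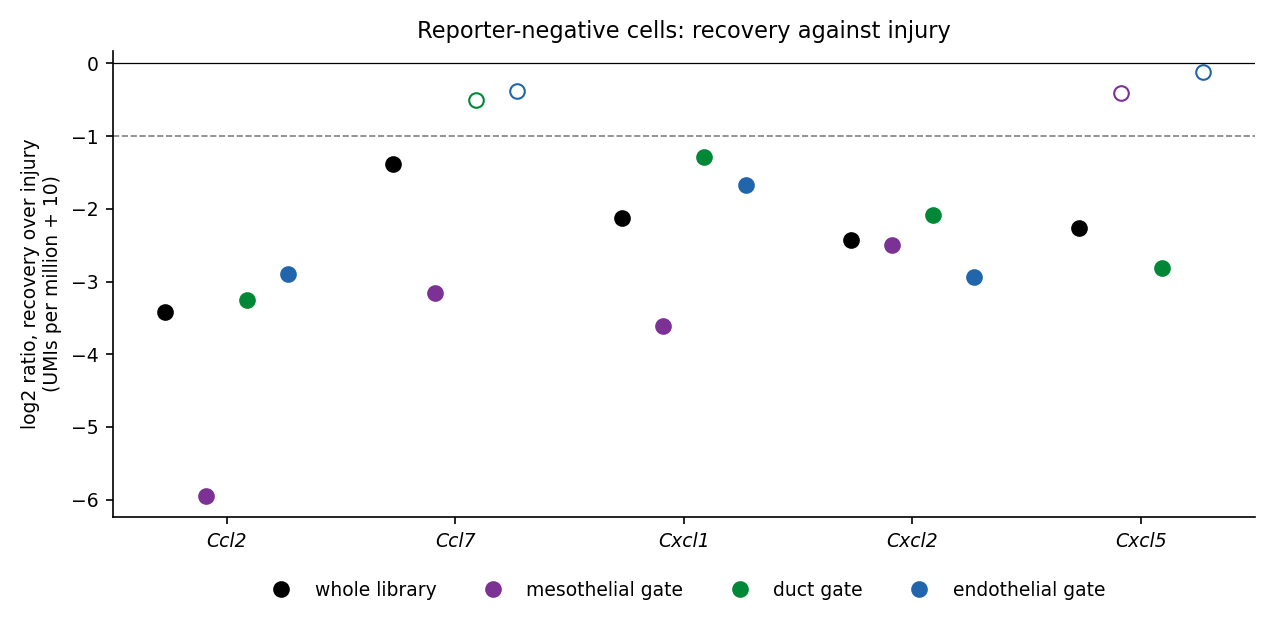
Log2 ratio of negative recovery over negative injury (CPM with 10 added) for each chemokine, in whole libraries and in 3 gates. The dashed line marks 2-fold lower and open circles mark values under 10 CPM in both groups. Ccl2 in the mesothelial gate is lowest, at -5.95.

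Immediate early genes that tissue digestion can induce also differed between these libraries. The 15 genes of a dissociation stress list summed to 17060 CPM in mesothelial cells of negative recovery and 26488 at injury, with 4 of 15 at least 2-fold lower (Atf3, Dusp1, Ier2, Ier3). In endothelial cells the sums were 14706 and 23573 CPM, with 5 of 15 lower. In duct cells they were 22712 and 22565 CPM, with 1 of 15 lower, Ier3 (333 against 986 CPM). Among cells at or below the median stress share, Ccl2 stood at 0 against 334 CPM in mesothelial, 32.9 against 291 in duct and 8.79 against 116 in endothelial cells of recovery and injury, so the direction was the same in each. The part of digestion in the ratios was not tested further.

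Shares of cells with a member were compared after each cell was thinned to 2000 UMIs. In mesothelial cells, Ccl2 was detected in 54.5% of 268 cells at injury (48.3 to 60.5%) and in 0 of 79 in negative recovery, whose interval reaches 4.56%. Cxcl1 was in 36.2% against 3.80% of these cells. In endothelial cells, shares at injury and recovery were 14.9% and 1.18% for Ccl2, 14.7% and 5.13% for Cxcl1, and 14.0% and 1.18% for Cxcl2. So each member named was seen in a smaller share of cells in recovery at equal depth. Without thinning, Ccl2 was in 27.6% and 3.39% of endothelial cells, at medians of 6294 and 8520 UMIs.

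Shares for 2 members could be set beside a gate with almost none. Cxcl5 was in 11.1% of thinned duct cells at injury and in 0.211% of endothelial cells of that library. Ccl7 was in 16.4% of mesothelial and 0.633% of endothelial cells. At least 1 member was seen in 69.8% of mesothelial, 43.3% of duct and 35.8% of endothelial cells at injury, and in 3.80%, 12.9% and 7.08% of those in negative recovery.

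The second comparison set the reporter fractions against each other in recovery. It shares the negative recovery library with the first, so the ratios of both carry the low values of that library. Over whole libraries 4 of 5 members were at least 2-fold higher in the positive fraction, against 8.99% of 10042 genes, with Ccl2 at log2 2.21, Ccl7 at 1.89, Cxcl1 at 1.37 and Cxcl2 at 1.16. Cxcl5 had 14.7 against 2.46 CPM, just under the threshold at 0.98. Without the 1% of cells highest for each member 2 of 5 were apart, with Ccl7 at 0.75 and Cxcl2 at 0.55, and with 50 CPM added 1 of 5, Ccl2. Cell types differ in this comparison, since 49.3% of positive cells and 2.68% of negative cells were in the mesothelial gate.

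Within the mesothelial gate all 5 members were higher in the positive fraction, against 1.44% of 8861 genes, at similar median totals (15840 and 15757 UMIs). Of the marker lists, Fn1 (148 against 2.68 CPM), Des (27.1 against 6.04) and Lyz2 (11.4 against 0.671) were also at least 2-fold higher. The duct marker Tm4sf4 was lower (0.267 against 18.8 CPM), and the part of other cells' RNA in this result was not tested. Cxcl1 stood at 155 against 27.5 CPM (5.65-fold, interval 4.16 to 7.89), Ccl2 at 77.8 against 2.01 CPM (38.6-fold, 13.2 to 187) and Ccl7 at 28.2 against 2.68 CPM. Cxcl2 and Cxcl5 had 0 UMIs in the negative cells, and were 10.4-fold and 5.14-fold above a floor of 3 UMIs there. That floor takes no account of how UMIs lay among cells. Of the 1174 positive cells, 12 held 90.2% of the Cxcl2 UMIs, and the 12 highest for Cxcl5 held 92.3% of its UMIs. Without the 1% of cells highest for each, the log2 ratios were 0.27 and 0.11. These levels rested on few cells: without the 1% of cells highest for each member 2 of 5 were apart, Ccl2 and Cxcl1, and without the single highest cell Cxcl5 was not (log2 0.67).

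In the endothelial gate 3 of 5 were higher in the positive fraction, against 3.54% of 9000 genes: Ccl2 (126 against 8.14 CPM, log2 2.91), Ccl7 (1.08) and Cxcl5 (1.11). All 8 stellate check markers were at least 2-fold higher in these 177 positive cells, as given above, and mesothelial (Msln, Igfbp6, Krt19) and myeloid markers (C1qa, Clec4f) were higher in them too. The part of these cells' RNA in the result was not tested. In the 10 of them with most Ccl2, which held 89.6% of its UMIs, the stellate list stood at 7477 CPM and the median total was 26728 UMIs, against 9789 over the gate. Without the highest cell of each member, 1 of 5 was apart, Ccl2.

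Osr1, the transcription factor in the study's title, was used to split the mesothelial cells of positive recovery, a split taken from earlier results of these data. In 271 cells with at least 2 Osr1 UMIs against 806 with 0, all 5 members were at least 2-fold higher, against 3.79% of 8912 genes. Cxcl1 stood at 399 against 67.1 CPM, Ccl2 at 178 against 16.1 and Ccl7 at 82.7 against 5.04. For the neutrophil attractants Cxcl2 and Cxcl5 nearly all RNA was on the Osr1 side, with 437 against 15 UMIs and 218 against 14. It lay in few cells, since the 10 highest of the 271 held 93.1% of the Cxcl2 and 96.3% of the Cxcl5 UMIs. The 10 highest for Cxcl2 had a median total of 42622 UMIs, against 16386 over the cells with Osr1. The 97 cells with 1 Osr1 UMI were on neither side and held 507 Ccl2 UMIs, 399 of them in the 1 cell described below. Their Ccl2 level was 233 CPM with that cell and 54.1 without it, and their Cxcl1 level 118 CPM. At 2000 UMIs each, 24.8% of cells with Osr1 and 8.52% of those without held Cxcl1, and 9.26% and 2.32% held Ccl2.

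Depth differed little across this split (medians of 16386 and 15563 UMIs), but the stress list did, at 26514 against 17740 CPM with 3 of 15 genes higher (Dusp1, Ier2, Ier3). In cells at or below the median stress share the members were again all higher with Osr1, with Ccl2 at 385 against 15.8 CPM in 63 and 512 cells. Over all 271 cells with Osr1, 10 held 74.0% of the Ccl2 UMIs, so the level in 63 cells can rest on very few. Of the mesothelial check list the cells with Osr1 held 7846 CPM and those without 9874, and the myeloid list stood at 92.7 and 74.1 CPM. Msln (460 against 1566 CPM) and Krt7 of the duct list (124 against 612 CPM) were lower with Osr1. Fn1 of the monocyte list (387 against 42.2 CPM) and Lyz2 of the myeloid list (25.4 against 6.95 CPM) were higher. The stellate list stood at 521 against 291 CPM, with Des (51.4 against 5.59 CPM) and Pdgfrb (23.3 against 3.27 CPM) higher and Colec11 lower. The part of stellate or myeloid RNA in the result was not tested. Without the 1% highest cells, 4 of 5 were still apart and Cxcl5 was not (log2 0.76).

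In negative injury only 21 mesothelial cells had at least 2 Osr1 UMIs, under the minimum of 30, so their values are given without a ratio. Ccl2 stood at 1229 CPM in them and at 705 in the 227 cells without Osr1, Ccl7 at 211 and 99.5, and Cxcl2 at 130 and 42.4. For Cxcl1 the values were 559 and 456 CPM. In negative injury, then, cells without Osr1 carried Ccl2 and Cxcl1 at levels above those of cells with Osr1 in positive recovery. Stage and reporter fraction both differ between these cells.

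**Figure D4:**
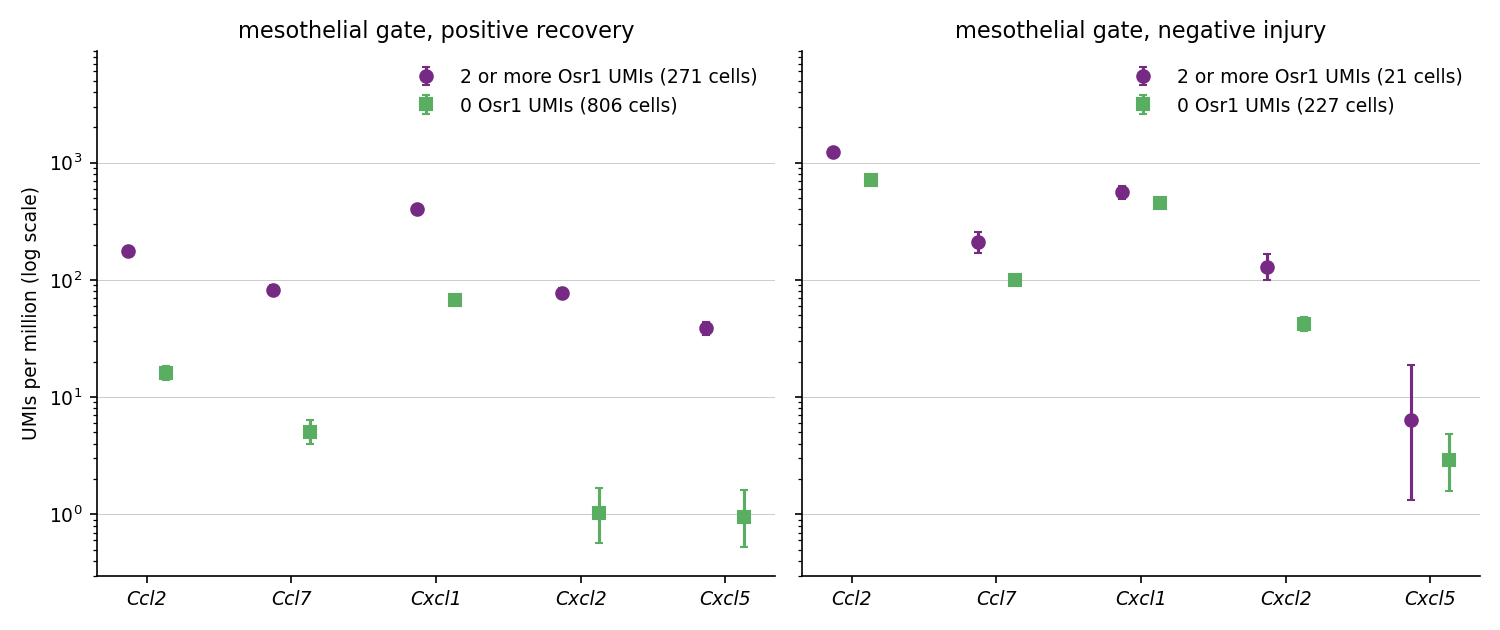
Level of each chemokine (CPM, log axis) in mesothelial gate cells with at least 2 and with 0 Osr1 UMIs, in positive recovery (left) and negative injury (right). Bars are 95% Poisson intervals. On the left the 2 sets of cells are apart for all 5 genes, and on the right the cells without Osr1 are also high, at 705 CPM for Ccl2.

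The members differed in how evenly cells carried them. In mesothelial cells of negative injury the 10 cells with most Ccl2 held 21.3% of its UMIs, with at most 116 in 1 cell. In those of positive recovery the top 10 of 1174 cells held 69.8%, and 1 cell alone held 399 Ccl2 UMIs of its 177516. The top 10 held 86.8% of Cxcl2 and 90.6% of Cxcl5 but 28.0% of Cxcl1 in that group. Ccl2 was thus spread over more of the cells in negative injury than in positive recovery. These groups differ in both stage and reporter fraction, which cannot be told apart here. Per UMI of the cell, however, the cell with most Ccl2 stood at 5981 CPM at injury and at 2248 CPM in positive recovery, where its total was far larger.

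The cells highest for each member had larger totals in positive recovery, with a median of 31932 UMIs for the 10 highest in Ccl2 against 15840 over the gate. Their mesothelial list stood at 3722 CPM against 9252 over the gate, and their stellate list at 902 against 364. Doublets were called and removed in this library, and their part in these cells was not tested. At injury the 10 cells highest for Ccl2 had a median total of 22650 UMIs, close to the 20837 of the gate. In the 6 stellate gate cells of negative recovery Ccl2 stood at 1424 CPM, above any larger group, and 1 cell held 86 of the 108 UMIs, and in positive recovery 1 of 113 stellate cells held 118 of 215.

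**Figure D5:**
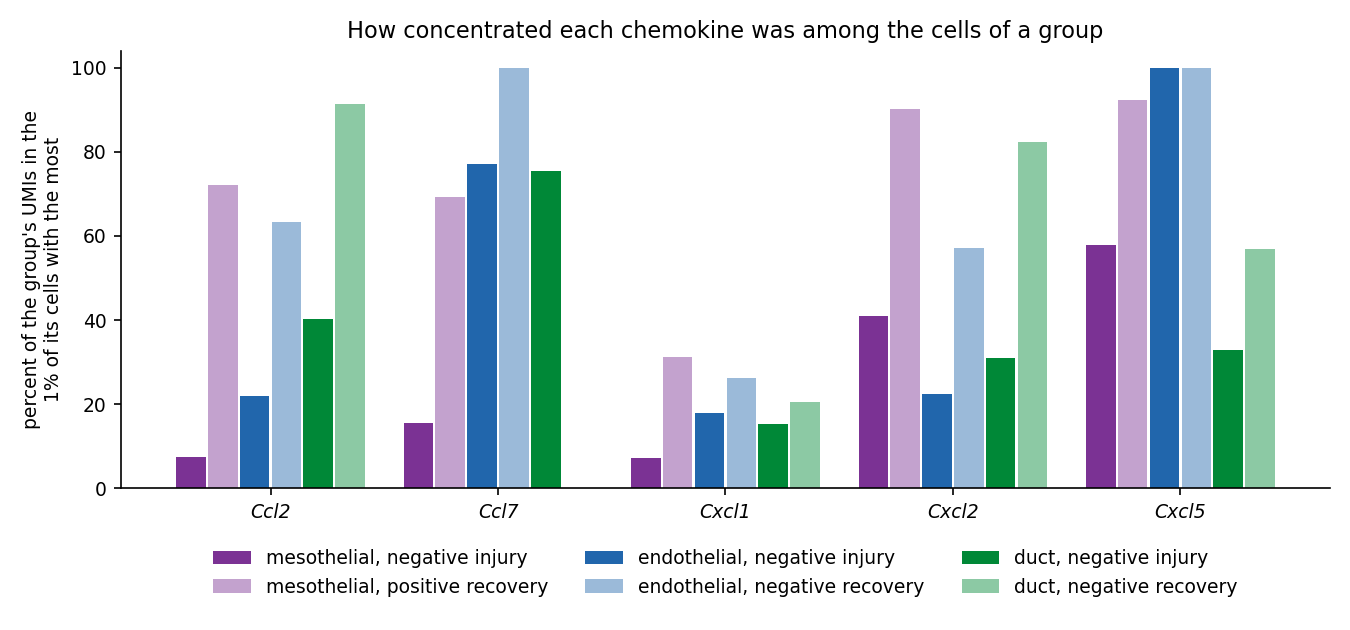
Percent of each group's UMIs of a chemokine that lay in the 1% of its cells with the most (at least 1 cell), for 6 groups of gated cells. Cxcl1 is the most evenly spread, at 7.35 to 31.1%. Ccl2 in the mesothelial gate stands at 7.49% in negative injury and 72.1% in positive recovery, which differ in both stage and reporter fraction. Bars at 100% have fewer cells with a UMI than that 1%, and Ccl7 had 0 UMIs in duct cells of negative recovery.

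The same rare cells often carried several members. In mesothelial cells of positive recovery, 7 of the 10 cells highest for Ccl2 were among the 10 highest for Ccl7, 5 among those for Cxcl1 and 5 among those for Cxcl2. In negative injury, which differs in both stage and reporter fraction, the same counts were 4, 2 and 1. These cells were ranked by UMIs and not by share of the cell's total, so a large cell can rank high for several members. In positive recovery, but less so at injury, the cells highest for Ccl2 had larger totals than the gate, as given above. In thinned cells of positive recovery, Cxcl1 was seen in 64.3% of the 28 cells with Ccl7 (44.1 to 81.4%) and in 11.2% of those without. In duct cells at injury, Cxcl5 was seen in 33.0% of the 94 cells with Ccl2 (23.6 to 43.4%) and in 8.83% of those without, and Cxcl2 in 24.5% and 7.28%. Endothelial cells at injury showed a smaller gap for Ccl2 and Cxcl1, at 17.8% (14.6 to 21.5%) and 14.1%. Cells within a gate share their library, so these shares describe cells and not replicates.

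The receptors of these ligands were nearly absent from the negative libraries. Ccr2, the monocyte receptor for Ccl2 and Ccl7, had 0 UMIs in negative injury, which with a floor of 3 UMIs allows 0.0617 CPM, 7 UMIs in negative recovery and 330 in positive recovery. Of the last, 274 lay in the 53 myeloid gate cells, at 389 CPM. Cxcr2, the neutrophil receptor for the CXC members, had 1, 5 and 56 UMIs in these libraries. Ptprc, the pan-leukocyte gene encoding CD45, had 3, 12 and 877 UMIs, so leukocytes were scarce in the negative libraries themselves. None of 7 neutrophil markers reached 10 CPM in the negative libraries, whereas S100a8 and S100a9 stood at 54.0 and 56.0 CPM in positive recovery. Whether the levels of the ligands were followed by cells drawn into the liver cannot be read from these libraries.

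Ackr1 and Ackr2, decoy receptors that bind chemokines without signalling, were highest in the endothelial gate of each library. In endothelial cells Ackr1 stood at 58.3 CPM in negative injury, 66.5 in negative recovery and 52.9 in positive recovery, and Ackr2 at 38.8, 45.0 and 36.6 CPM. Stellate cells also held Ackr1, at 24.5 CPM in negative injury and 19.8 in positive recovery. Neither was at least 2-fold apart in endothelial cells in either comparison, in contrast to Ccl2 in the same cells.

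Genes of the inducing pathway were counted from a fixed list of 15 NF-κB subunits, inhibitors and partners. Between negative recovery and injury, 6 of 14 measured were at least 2-fold lower in mesothelial cells and 0 higher (median log2 -0.83). These were the subunit gene Nfkb1, the inhibitors Nfkbia (586 against 2425 CPM) and Tnfaip3 (14.8 against 306), Bcl3, Birc3 and Cebpd. In endothelial cells 3 of 15 were lower, Nfkbiz, Tnfaip3 and Cebpb (median -0.32), and in duct cells 0 of 15 (median -0.51). All 15 had log2 ratios below 0 in duct cells, with Tnfaip3 (-0.96) and Nfkbia (-0.92) just short of 2-fold. The shares of all genes lower in these gates were 2.5%, 2.74% and 2.16%. In the Osr1 split Nfkbie and Tnfaip3 were higher, 2 of 15 against 3.79% of all genes, and 0 lower.

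Of 8 inducing cytokines, Tnf, encoding tumour necrosis factor, was lower in recovery in duct cells (6.95 against 54.5 CPM) and endothelial cells (4.64 against 75.1 CPM). In mesothelial cells Il33 alone was measured, at 47.0 and 41.5 CPM. The alarmin Il33 (246 against 59.5 CPM) and Il6 (28.8 against 7.57) were higher in the cells with Osr1, along with the chemokines. Of 5 genes for RNA decay, Zfp36 and Zc3h12a, whose products degrade such messages, were lower in mesothelial cells of recovery (523 against 1414 and 30.9 against 87.2 CPM). Both were thus lower in the same cells as the chemokine messages. Of the 4 CC genes near Ccl2 and Ccl7, Ccl11, Ccl12, Ccl8 and Ccl1, none reached 10 CPM in either negative library. Of the 4 CXC genes between Cxcl5 and Cxcl1, Pf4 alone did, at 8.49 CPM in recovery and 11.1 at injury, and it was not 2-fold apart.

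Across the 11 groups of at least 30 cells, log2 levels of Ccl2 and Ccl7 had a Pearson r of 0.77, and those of Ccl2 and Cxcl1 0.71. Cxcl2 and Cxcl5 had 0.06, and Ccl7 and Cxcl5 -0.18. Members of 1 gene cluster were thus not always alike: for the neighbours Cxcl1 and Cxcl2 r was 0.30. Among 10160 genes, those most like each member by this measure were Eif3j2 (0.79), Stk40 (0.78) and Ccl7 for Ccl2, and Synpo2 (0.86), Cebpb (0.86) and Leprotl1 (0.85) for Ccl7. For Cxcl1 they were Ifrd1 (0.88), Tmem120a (0.87) and Tkfc (0.86). Cxcl2 was most like Tnf (0.91), Hp (0.90) and Fam241a (0.89), all highest in the myeloid gate, and Cxcl5 most like Eif4e2 (0.89), Fgb (0.88) and Peg3 (0.86), all highest in duct cells at injury. Groups share libraries and differ in depth, and the values describe these groups only.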

How the data were processed

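Per the labels' protocols, livers were digested with Pronase and Collagenase and non-parenchymal cells enriched by Nycodenz density separation before 10x Genomics 3′ v2 library preparation. Per the file headers, the deposited matrices come from software version 3.1.0, and they hold counts of UMIs for each gene and barcode. The submitters' processing notes name the builds mm10 and GRCh38, fastp and featureCounts 1.6.2. The aligner is not given in the sources used here, nor is the method of separating reporter fractions.

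A barcode was kept if it had 500 UMIs or more from 300 genes or more, of which mitochondrial UMIs made up no more than 20%. Scrublet in scanpy 1.11.5 called and removed 108 of 2488, 6 of 2955 and 5 of 5448 cells in positive recovery, negative recovery and negative injury. It did not work in the negative libraries (0.203% and 0.0918%), so doublets remain there. The cells used held 31432462, 27200555 and 48622040 UMIs.

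UMIs were summed by gate and library and scaled to CPM. Exact 95% intervals are Poisson for UMI sums and Clopper-Pearson for shares of cells. Every member is named. Lists are given by counts, and the 3 genes most like a member are taken among those at 20 CPM or more in at least 1 group. The members, gates, lists and the Osr1 split were chosen with earlier results of these data known. Positions and 3′ regions come from GENCODE M21 (GRCm38, mm10), where 30934 of the gene IDs were found. The ratio was tested on simulated data. Alternatives changed scaling (TMM in edgeR 4.0.16), the CPM added, cell filters, gates, the Osr1 threshold and thinning. The positive fraction was not compared between stages, since its injury counts were not analysed here.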

Additional observations from a re-analysis of the deposited data

How the results depend on the processing

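No member changed direction in any comparison under any alternative. Of 84 recounts of the members apart by 2-fold, 76 were within 1.5 times the count reported. Single values moved more often: 149 of the members' ratios left their counting interval and 271 did not, as did 66 and 44 of the shares of cells, whose alternatives change the depth. With 50 CPM added before the ratio, 3 members rather than 5 were lower in negative recovery than in negative injury over whole libraries. With the same setting the counts higher in the positive fraction were 1 over whole libraries, 2 in the mesothelial gate and 1 in the endothelial gate. Without the 1% of cells highest for a member, an alternative chosen after seeing the data, these counts were 2, 2 and 1. Without only the highest cell, also chosen after seeing the data, the endothelial count was 1. TMM scaling shifted the median of all genes by -0.15 to 0.12 (log2). With low-stress cells Cxcl1 was highest in the duct gate, and where cells could be in several gates Ccl7 was highest in the myeloid gate. Groups of 21 and 6 cells limit what could be compared. No paired analysis was possible because each group is 1 library.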

Other observations

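Endothelial cells were also split by 4 genes chosen after values were seen, Selp, Vwf, Stab2 and Rspo3, of which Selp, encoding the adhesion molecule P-selectin, showed the widest gap for Ccl2 in negative injury. The 996 cells with at least 2 Selp UMIs held Ccl2 at 189 CPM (95% interval 180 to 199), and the 2039 cells with 0 held it at 81.4 CPM (76.3 to 86.6). Cxcl1 stood at 134 and 97.0 CPM and Cxcl2 at 154 and 116 CPM in the same cells, whose median totals were 7360 and 5667 UMIs. In negative recovery 132 endothelial cells had at least 2 Selp UMIs, and Ccl2 stood at 12.8 CPM (7.94 to 19.6) in them and at 7.80 CPM (6.55 to 9.23) in those with 0, with overlapping intervals. By Stab2, a gene of sinusoidal endothelium, Ccl2 at injury was 126 CPM in cells with at least 2 UMIs and 123 CPM in cells with 0.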
